A study of Mus musculus with 12 samples.

Results

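The right minus left response is the part of the transcriptional answer to outflow obstruction that differed between the ventricles of the mouse heart. For each gene it was the clipped minus the sham right ventricle (the right response), less the constricted minus the sham left ventricle (the left response), all at 3 weeks. It used 8 of the 12 arrays of the series, 2 in each of 4 groups, and every gene measured by a probe set of its own, 19938 genes in all. All mice were male C57BL/6, aged 15 weeks at sampling. In the clipped right ventricles a haemoclip had narrowed the pulmonary artery 3 weeks earlier, in the constricted left ventricles a clip had narrowed the aorta, and the sham right and sham left ventricles came from the control operation at the same time. Hearts had been perfused and cut into left ventricle, septum and right ventricle, so that the pieces held all cell types of the wall. The labels give no number of animals per array and do not say whether the sham pieces of both chambers came from the same hearts. The p-values below therefore measure only the spread between arrays, which may be technical.

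The right ventricle normally pumps into the low-pressure circulation of the lung, and the left into the high-pressure circulation of the body. Either chamber, when its outflow is narrowed, is known to thicken, to reactivate fetal muscle genes such as those for natriuretic peptides and slow myosin, and to lay down collagen and other matrix made mainly by fibroblasts. The design asks, gene by gene, whether one chamber changed more than the other. Each chamber had its own operation, on its own vessel. A difference between the chambers therefore cannot be told apart from a difference between the operations, such as in the degree of narrowing.

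Levels are log2 values, so that a difference of 1 is a 2-fold change. The median level of the 8 arrays lay between 6.70 and 6.77. The ventricular myosin light chain gene Myl2 read 13.44 to 13.66 and the ventricular transcription factor gene Irx4 8.19 to 8.52, so that all 8 arrays carried ventricular muscle. The sham right ventricle stood apart from every other group. Both of its arrays lay above the other 6 in 18.2% of genes and below them in 15.2%, against 2.69% to 7.11% in either direction for the other groups. Its values also spread less over genes (SD 1.97 and 1.99, against 2.04 to 2.08 on the other 6 arrays). Over all 12 arrays, clipped right ventricles at 1 and 6 weeks included, the sham right arrays were above all the others in 14.3% of genes and below them in 12.4%. A right minus left response holds this group in every value, and its part in each result cannot be told apart from that of the clip. An exact permutation within chambers has 36 arrangements and could not give a two-sided p under 0.056, so the tests below come from one limma model over all genes (4 residual degrees of freedom, 5.06 added by pooling over genes).

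**Figure D1:**
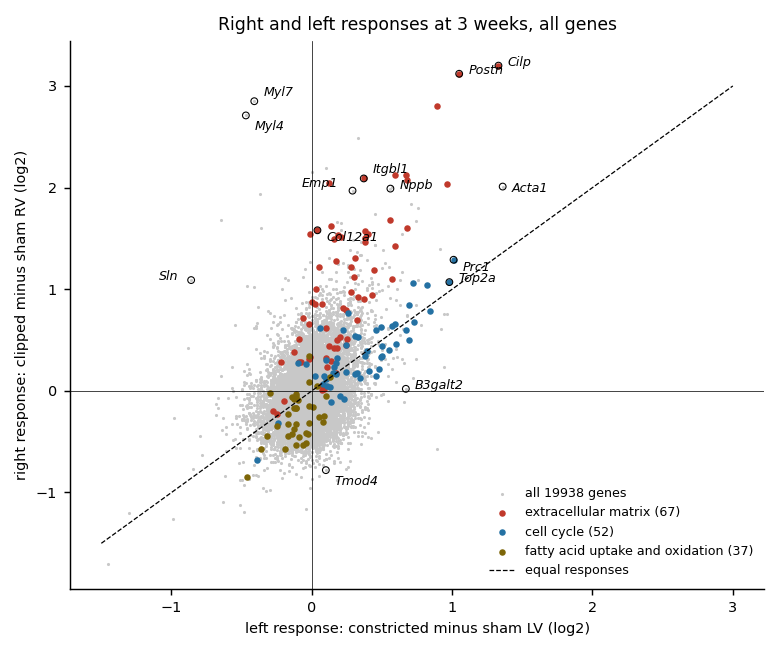
Each point is a gene, with its left response (constricted minus sham left ventricle, log2) on the x axis and its right response (clipped minus sham right ventricle, log2) on the y axis, means of 2 arrays per group. Extracellular matrix genes (red) lie mostly above the line of equal responses, cell cycle genes (blue) follow it up to Top2a and Prc1, and genes of fatty acid use (brown) lie mostly below 0 on both axes.

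In 2 genes the right response exceeded the left response beyond the spread of the arrays, Emp1 and Itgbl1 (0.01% of 19938 genes, adjusted p under 0.05), and in none was it smaller. At an unadjusted p under 0.05 the right minus left response differed from 0 in 14.9% of genes, higher in 1514 genes (7.59%) and lower in 1463 (7.34%). It was at least 2-fold higher in 69 genes (0.346%) and at least 2-fold lower in 6 (0.0301%). The responses themselves were of unequal size. In the clipped right ventricle 1321 genes passed as higher than in the sham right ventricle (6.63%) and 1120 as lower (5.62%). No gene passed in the left ventricle (0%), where 590 were higher (2.96%) and 793 lower (3.98%) at an unadjusted p under 0.05. The SD of the responses over all genes was 0.28 on the right and 0.14 on the left. These counts hang on single arrays. Without the first clipped right array 99 genes passed for the right minus left response, without the second sham left array 15, without the second clipped right array 3, without the second constricted left array 4, without either the first sham left or the first constricted left array 1, and without either sham right array 0. The count of the right response fell from 2441 to 253 without the second clipped right array, to 666 and 531 without the first and second sham right array, and to 1593 without either constricted left array, through the pooled spread. With the 1 and 6 week arrays in the fit, 0 genes passed for the right minus left response and 2381 had an unadjusted p under 0.05. Mates correlated at 0.9917 at 1 week and 0.9952 at 6 weeks, against 0.995 to 0.9971 in the groups of 3 weeks. Why the count fell was not tested.

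The 1321 genes that rose on the right had a median right response of 0.50 and a median left response of 0.10, and 1045 of them were also above 0 on the left. Their median difference between the chambers was -0.29 in the sham mice and 0.13 in the operated mice, values that partly follow from choosing the genes on the same right ventricle arrays. The 1120 genes that fell on the right had medians of -0.44 on the right and -0.08 on the left, and chamber differences of 0.27 in the sham mice and -0.10 in the operated mice, under the same limit. Seen from the left, the 590 genes higher there at an unadjusted p under 0.05 had nearly equal medians, 0.30 on the left and 0.27 on the right. Over all genes the right and left responses, which share no array, had a Pearson correlation of 0.37 and a Spearman correlation of 0.31, given as a description across genes that are not independent.

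The upstream sequences of the genes that passed are shown because both genes moved together, a rise on the right far above the left value. They are the 250 bases before the RefSeq gene start (GRCm38.p6, read 5′ to 3′ on the plus strand), for Emp1 at chr6:135362681-135362930 and for Itgbl1 at chr14:123659890-123660139. Capitals mark the letters of the AP-1 motif TGANTCA, searched on both strands.
Emp1: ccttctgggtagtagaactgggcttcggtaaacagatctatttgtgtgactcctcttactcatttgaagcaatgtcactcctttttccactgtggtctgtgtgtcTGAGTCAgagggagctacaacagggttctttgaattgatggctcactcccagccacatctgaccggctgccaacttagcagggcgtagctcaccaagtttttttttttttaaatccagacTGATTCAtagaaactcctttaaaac
Itgbl1: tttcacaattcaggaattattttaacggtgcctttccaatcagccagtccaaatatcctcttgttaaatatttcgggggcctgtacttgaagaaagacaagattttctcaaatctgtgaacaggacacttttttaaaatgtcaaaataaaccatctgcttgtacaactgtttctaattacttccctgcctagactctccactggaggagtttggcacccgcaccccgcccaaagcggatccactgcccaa
The Emp1 window held the AP-1 letters at 145 and 25 bases before the start, at places that do not overlap, while a second Emp1 window of the table and that of Itgbl1 held none. The letters are in 6.75% of the 32851 windows of this length. Neither the TEAD motif GGAATG, found in 12.6% of windows, nor the CArG box, in 1.47%, was in any of these windows. A match of letters does not show that a factor binds there.

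Emp1 encodes a tetraspan membrane protein of the cell surface. It read 8.67 and 8.68 on the sham right arrays, 10.58 and 10.72 on the clipped right, 9.65 and 9.64 on the sham left, and 9.88 and 9.98 on the constricted left. The clipped right arrays were the highest and the sham right arrays the lowest, and no groups overlapped. Emp1 rose by 1.97 ± 0.09 (SE) on the right, 3.92-fold, against a left value of 0.29 ± 0.09 (adjusted p = 0.56), and the difference of 1.68 ± 0.12 (95% interval 1.41 to 1.96) had an adjusted p of 0.0043. The chambers changed places: sham right lay 0.97 below sham left (-0.97) and clipped right 0.72 above constricted left. Clipped right ventricles read 9.92 and 11.03 at 1 week and 10.2 and 10.86 at 6 weeks. Leaving out any one array kept the difference of Emp1 between 1.62 and 1.75, with adjusted p of 0.074 and 0.072 without the first and the second sham right array and 0.35 with all 12 arrays in the fit.

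Itgbl1 encodes a secreted protein with integrin beta-like repeats. It read 7.14 and 7.05 in the sham right ventricle, 9.11 and 9.27 after the clip, 8.32 and 8.17 in the sham left ventricle and 8.52 and 8.70 after constriction. Its groups also did not overlap and stood in the same order as those of Emp1. The right response was 2.09 ± 0.10, the left value 0.37 ± 0.10 (adjusted p = 0.53), and the difference 1.72 ± 0.15 (95% interval 1.39 to 2.05, adjusted p = 0.0086). Sham right lay 1.14 below sham left (-1.14), and clipped right 0.58 above constricted left. The difference of Itgbl1 stayed between 1.63 and 1.81 as arrays were left out, and it no longer passed without either sham right array (adjusted p = 0.10 and 0.14), without the first sham left array (0.07), without the first constricted left array (0.054), without the second sham left and second clipped right arrays together (0.056, an alternative chosen after seeing the data) or with all 12 arrays (0.35).

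**Figure D2:**
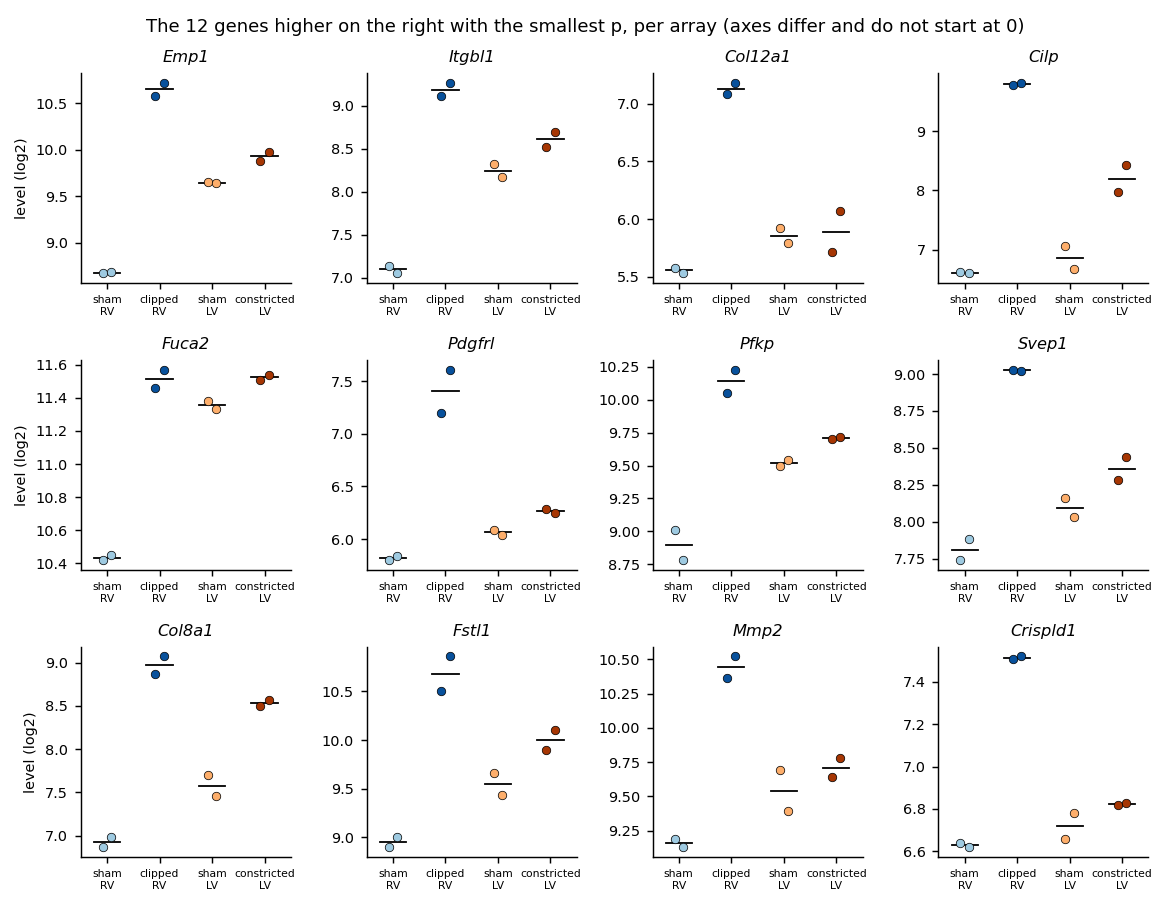
Levels (log2, y axis) of the 12 genes with the smallest p for a higher right response, in sham and clipped right ventricle (light and dark blue) and sham and constricted left ventricle (light and dark orange); points are arrays and lines group means. The genes were chosen by this contrast, so the low sham right and high clipped right arrays seen in most panels are a description; in Fuca2 the clipped right and constricted left arrays overlap.

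The next genes by p did not pass for the difference (adjusted p 0.056 to 0.11), although each rose on the right. Col12a1, a collagen that decorates collagen fibrils, read 5.58 and 5.53 in sham right, 7.08 and 7.18 in clipped right, 5.92 and 5.79 in sham left and 5.71 and 6.07 in constricted left ventricle. The clipped right arrays were the highest and the sham right arrays the lowest, while the left groups overlapped. The difference was 1.54 ± 0.17 (adjusted p = 0.056). Cilp, a matrix protein of fibroblasts, read 6.62 and 6.60 in sham right and 9.79 and 9.82 in clipped right, against 7.06 and 6.67 in sham left and 7.97 and 8.43 in constricted left. It had a right response of 3.20 and, with a left value of 1.33 (unadjusted p = 1.7e-05), one of the largest left values too, and the difference was 1.86 ± 0.23 (adjusted p = 0.076). Fuca2, a fucosidase that trims sugars from glycoproteins, differed in another way: 10.42 and 10.45 in sham right, 11.46 and 11.57 in clipped right, 11.38 and 11.33 in sham left and 11.51 and 11.54 in constricted left. It was 0.92 lower in the sham right than in the sham left ventricle (-0.92), and the operated chambers overlapped (-0.01). Pdgfrl, which resembles a growth factor receptor, had a difference of 1.37 ± 0.18, Fstl1, a secreted glycoprotein of the follistatin family, 1.29 ± 0.19, Mmp2, a gelatinase, 1.11 ± 0.17, Col8a1, a network-forming collagen, 1.08 ± 0.16, and Svep1, a matrix adhesion protein, 0.96 ± 0.14. Col8a1 was the other gene of this group with a left value near 1 (0.96, unadjusted p = 1.1e-05).

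Of 67 measured extracellular matrix genes (73 listed) 51 rose on the right (6.63% of all genes) and none fell. None passed on the left, where 22 were higher and 2 lower at an unadjusted p under 0.05. For the difference 1 passed (Itgbl1), 50 were higher at an unadjusted p under 0.05 (7.59% of all genes) and none lower, and 64 were above 0, where 46.9% of all genes were. The median right minus left response of the list was 0.69, against -0.02 over all genes, from a median of 0.90 on the right and 0.18 on the left. It was 0.57 to 0.80 with any one array left out. In 56 of the 67 genes both clipped right arrays lay above the other 6, which held for 7.11% of all genes. In 31 both sham right arrays lay below the other 6 (15.2% of all genes). Over the list, the median chamber difference was -0.15 in sham mice and 0.51 in operated mice.

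Within the matrix, Postn (periostin, made by activated fibroblasts) read 7.87 and 8.25 in sham right, 11.01 and 11.35 in clipped right, 9.37 and 8.65 in sham left and 9.92 and 10.2 in constricted left ventricle. Groups did not overlap, and the sham left arrays were 0.72 apart. Its right response of 3.12 ± 0.23 was 8.70-fold, its left value 1.05 ± 0.23 (adjusted p = 0.39) and the difference 2.07 ± 0.33 (adjusted p = 0.11). The fibrillar collagen genes Col1a1 and Col3a1 had differences of 1.13 ± 0.26 and 1.34 ± 0.26 (adjusted p 0.18 and 0.16), with left values of 0.38 and 0.19. Fn1 (fibronectin) had 1.48 ± 0.36 and Tnc (tenascin C) 0.69 ± 0.25 (adjusted p 0.19 and 0.29), with left values of 0.14 and 0.28. For Col1a1, Col3a1, Fn1 and Tnc sham left and constricted left arrays overlapped, and in the first 3 the first sham left array was the higher of its pair, by 0.65, 0.62 and 0.82. Thbs4 (a thrombospondin) and Col14a1 (a fibril-associated collagen), named after their values were seen, had the largest differences of the list beside Postn, 1.91 and 1.93, and Col18a1 and Ccn1 had values near 0 (-0.07 and 0.01, the latter -0.07 with loess scaling).

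**Figure D3:**
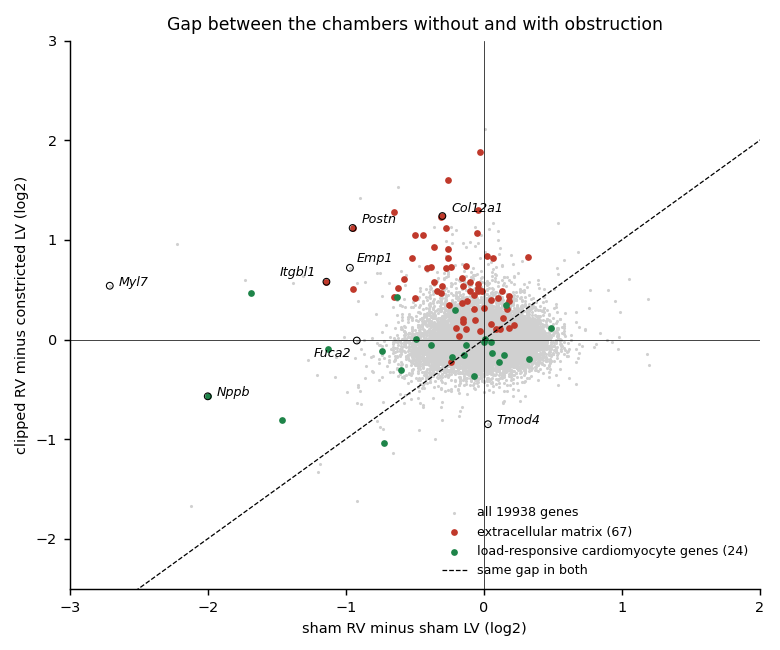
Difference between the chambers in log2 units, sham right minus sham left on the x axis and clipped right minus constricted left on the y axis, one point per gene, with the matrix genes in red and the load-responsive genes in green. Most matrix genes lie above 0 on the y axis and left of 0 on the x axis; Nppb moves from -2.00 to -0.57, Fuca2 from -0.92 to -0.01, and Emp1 and Itgbl1 cross from below to above 0.

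Markers of fibroblasts, the cells that make most of this matrix, were counted apart from it. Of 23 fibroblast markers 14 rose on the right (6.63% of all genes), 15 were higher for the difference at an unadjusted p under 0.05 (7.59%) and none lower, and the median difference was 0.53 (0.66 on the right, 0.16 on the left). Dcn, Lum, Col1a1, Col1a2, Loxl1 and Mfap5 stand on the matrix list too. The mean level of the markers was 8.48 and 8.46 on the sham right arrays, 9.11 and 9.21 on the clipped right, 8.75 and 8.45 on the sham left, and 8.67 and 8.77 on the constricted left, where only the clipped right arrays stood clear of the rest. In a piece of wall, more cells of a type and more RNA per cell cannot be told apart. Lum (lumican, a small proteoglycan) had a difference of 1.14 ± 0.18 and Meox1, a transcription factor of activated fibroblasts, 0.93 ± 0.15 (adjusted p 0.11 each). Meox1 read 7.05 and 7.21 in sham right and 8.80 and 8.80 in clipped right, 7.44 and 7.60 in sham left and 8.15 and 8.37 in constricted left, so that obstruction went with higher arrays in each chamber and the larger step was on the right. Pi16 and Mfap5, genes of adventitial fibroblasts, had differences of 1.12 ± 0.20 and 1.39 ± 0.28 (adjusted p 0.15 and 0.16).

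Among ligands and receptors of the TGF-beta and BMP pathway, which drives matrix production, 8 of 49 genes rose on the right (6.63% of all genes) and none fell. The difference was higher at an unadjusted p under 0.05 in 9 (7.59% of all genes) and lower in none, and the median was 0.15. The ligand Tgfb3 had 0.98 ± 0.18, the receptor Tgfbr1 0.66 ± 0.15, the binding protein Ltbp2 0.82 ± 0.20 and the target Id3 0.69 ± 0.16 (adjusted p 0.15 to 0.19). Tgfb3 read 7.90 and 7.88 in sham right and 9.10 and 9.15 in clipped right, while the left groups, 8.31 and 7.97 and then 8.27 and 8.53, overlapped. The Wnt pathway held genes of both kinds: 9 of 39 higher and 6 lower for the difference at an unadjusted p under 0.05 (7.59% and 7.34% of all genes), median -0.02. The secreted antagonist Sfrp1 had 0.99 ± 0.22 (adjusted p = 0.18) and the receptor Fzd1 0.49 ± 0.13 (0.22), against -0.55 ± 0.14 for the ligand Wnt4 and -0.78 ± 0.20 for the antagonist Wif1 (0.20 each). All 4 passed on the right, Sfrp1 and Fzd1 as rises and Wnt4 and Wif1 as falls. Dkk3 and Sfrp2, 2 more secreted antagonists, had large but spread values, 2.32 ± 0.48 and 2.15 ± 0.68 (adjusted p 0.16 and 0.24). Dkk3 read 7.97 and 9.23 on the clipped right arrays, and Sfrp2 9.01 and 7.10 on the sham left arrays.

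Of 48 angiogenic and growth factor genes 10 rose and 4 fell on the right (6.63% and 5.62% of all genes), and 10 were higher and 3 lower for the difference at an unadjusted p under 0.05 (7.59% and 7.34% of all genes; median 0.20). The shares that fell or were lower lie near those of all genes. Ptn (pleiotrophin) had a difference of 1.00 ± 0.24, Igfbp6, which binds insulin-like growth factors, 0.85 ± 0.19, Igf1 0.70 ± 0.15 and Pdgfd 0.59 ± 0.13 (adjusted p 0.17 to 0.19). Igf1 read 7.68 and 7.48 in sham right, 8.08 and 8.21 in clipped right, 7.90 and 7.82 in sham left and 7.63 and 7.81 in constricted left. It rose by 0.56 ± 0.11 on the right, while its left value of -0.14 ± 0.11 was within the spread of the arrays (adjusted p = 0.85). Nox4, an oxidase that makes hydrogen peroxide, had 0.99 ± 0.24, and Gpx3, a secreted peroxidase, 0.91 ± 0.22 (adjusted p 0.19 and 0.20).

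Of 34 endothelial markers 12 rose on the right (6.63% of all genes), 10 were higher for the difference at an unadjusted p under 0.05 (7.59%) and none lower, and 31 were above 0 (46.9%), with a median of 0.26. Kdr, the main receptor for vascular endothelial growth factor, read 11.05 and 11.23 in sham right, 11.54 and 11.61 in clipped right, and 11.22 to 11.33 on all 4 left arrays, a difference of 0.40 ± 0.13 (adjusted p = 0.26). Clec14a and Sox17 had 0.90 ± 0.22 and 0.58 ± 0.21. The 21 smooth muscle and pericyte markers were mixed, 8 rising and 1 falling on the right (6.63% and 5.62% of all genes). Acta2, smooth muscle actin, had a difference of 0.70 ± 0.19 and the pericyte marker Vtn 0.60 ± 0.13, against -0.47 ± 0.13 for Lmod1 and -0.53 ± 0.13 for Cnn1 (adjusted p 0.18 to 0.22).

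**Figure D4:**
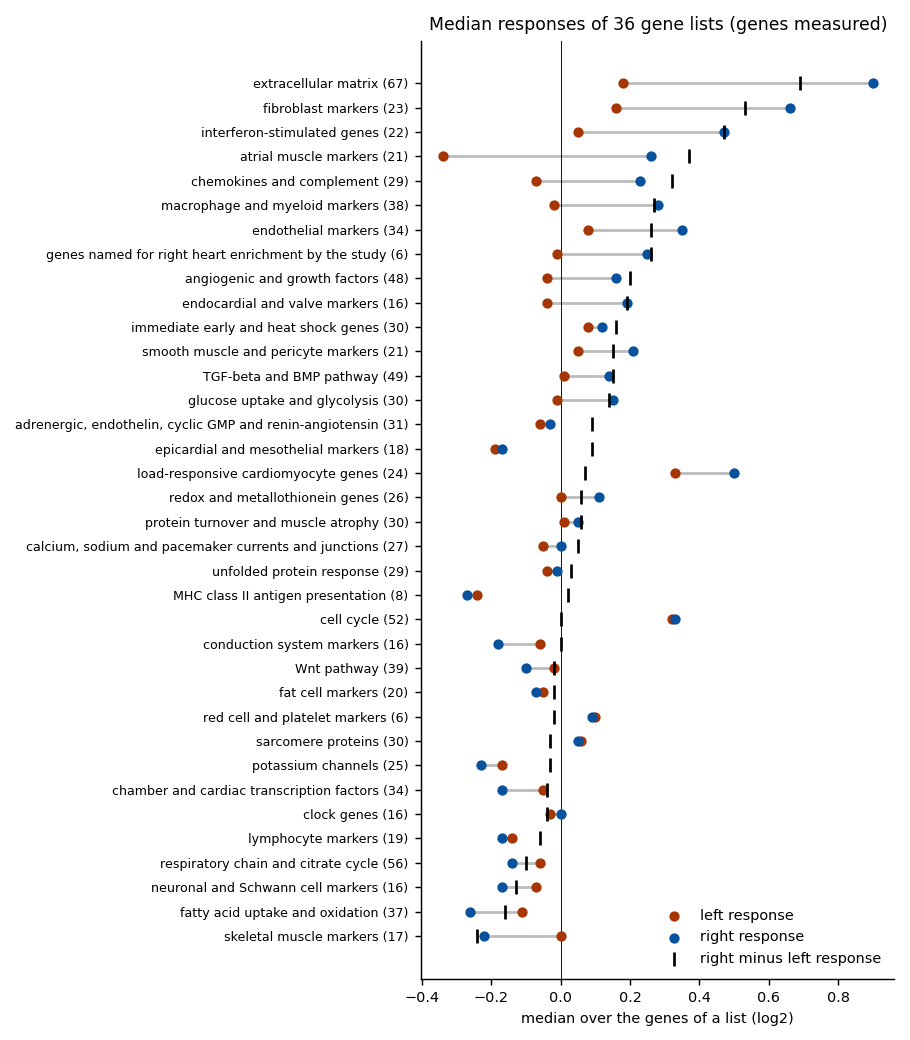
Median right response (blue), left response (orange) and right minus left response (black ticks) of 36 gene lists, in log2 units, with the number of genes measured in brackets. The matrix and fibroblast lists have the largest differences (0.69 and 0.53), cell cycle genes have equal medians on both sides (0.33 and 0.32), and fatty acid and skeletal muscle genes lie at the lower end.

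Genes of mitosis and DNA replication had nearly equal median values in the chambers, although members passed on the right alone. Of 52 cell cycle genes 17 rose and 1 fell on the right (6.63% and 5.62% of all genes). On the left none passed, and 26 were higher and 1 lower at an unadjusted p under 0.05, where 2.96% of all genes were higher. The medians were 0.33 and 0.32, and the median difference was 0.00 (-0.09 to 0.11 with one array left out). Top2a, the topoisomerase that untangles replicated DNA (named after its values were seen), read 6.02 and 6.15 in sham right, 7.23 and 7.08 in clipped right, 6.28 and 6.26 in sham left and 7.09 and 7.40 in constricted left. Operated arrays were above sham arrays in both chambers, and the operated groups overlapped. The right response was 1.07 ± 0.12 (adjusted p = 0.0024), the left value 0.98 ± 0.12 (adjusted p = 0.067), and the difference 0.09 ± 0.16 with a 95% interval of -0.28 to 0.47. Prc1, a spindle protein, had 1.29 and 1.01. For the difference 3 of the list were higher and none lower at an unadjusted p under 0.05 (7.59% and 7.34% of all genes). Among them Ccnd2 (cyclin D2) had 0.62 on the right and 0.06 on the left, a difference of 0.56 ± 0.15 (adjusted p = 0.22).

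The muscle cell's own load-responsive genes were raised on the right, with values above 0 on the left too. Of 24 such genes 14 rose on the right (6.63% of all genes), and 16 were higher on the left at an unadjusted p under 0.05 (2.96%) without passing. The medians were 0.50 and 0.33 and the median difference 0.07. Acta1, skeletal actin, read 9.91 and 10.9 in sham right, 12.65 and 12.18 in clipped right, 12.02 and 11.71 in sham left and 13.29 and 13.16 in constricted left ventricle. Each operated group lay above its own sham group, and constricted left lay above clipped right. Its right response was 2.01 ± 0.28 and its left value 1.36 ± 0.28 (adjusted p = 0.32), a difference of 0.65 ± 0.40 (95% interval -0.24 to 1.54). Myh7, the slow myosin heavy chain, had 1.80 on the right and 0.76 on the left (difference 1.04 ± 0.38, adjusted p = 0.28), and Ankrd1, a stretch-sensing protein of the sarcomere, 1.05 and 0.43 (0.62 ± 0.23, adjusted p = 0.28). Myh6, the fast adult myosin heavy chain, read 13.68 to 13.80 on all 8 arrays and had a difference of 0.00 ± 0.11 (95% interval -0.25 to 0.25). Fhl1, a LIM protein of the stretch response, had 0.96 on the right and 0.46 on the left, with clipped right (10.39 and 10.49) and constricted left (10.49 and 10.38) overlapping, while sham right was lower than sham left (9.40 and 9.56, against 10.01 and 9.93). Pfkp, a phosphofructokinase isoform that feeds glycolysis, was the one member among the 12 genes with the smallest p, with a difference of 1.06 ± 0.15 (adjusted p = 0.11).

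The natriuretic peptide genes had large right responses from a low sham level. Nppb, for the B-type peptide, read 9.14 and 10.13 in sham right, 11.64 and 11.60 in clipped right, 11.50 and 11.77 in sham left and 12.04 and 12.35 in constricted left. Clipped right reached the level of the sham left ventricle, so that the difference of 1.43 ± 0.37 (adjusted p = 0.20) went with a chamber gap of -2.00 in sham and -0.57 in operated mice. Nppa, for the atrial peptide, read 10.98 and 10.68 in sham right, 13.05 and 13.59 in clipped right, 12.05 and 13.00 in sham left and 12.54 and 13.16 in constricted left. The left groups overlapped, and the difference was 2.16 ± 0.44 (adjusted p = 0.16), from a right response of 2.49 (adjusted p = 0.0039).

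Atrial muscle markers gave the largest single values and the least steady ones. Over 21 of them the medians were 0.26 on the right and -0.34 on the left, and the median difference of 0.37 ran from 0.16 to 0.72 with one array left out. The mean level of the list was 7.77 and 7.51 on the sham right arrays, 8.11 and 8.63 on the clipped right, 7.90 and 8.53 on the sham left, and 8.06 and 7.94 on the constricted left. Myl7, the atrial regulatory light chain (named after its values were seen), read 8.13 and 5.93 in sham right, 9.48 and 10.28 in clipped right, 8.59 and 10.9 in sham left and 9.47 and 9.20 in constricted left. Mates differed by up to 2.31 in the sham left group, and the difference of 3.25 ± 1.10 had an adjusted p of 0.26. Myl4, the atrial essential light chain, had 3.18 ± 0.89 and Mybphl 1.96 ± 0.62 (adjusted p 0.22 and 0.24), again with the second sham left array the higher of its pair. Bmp10, an atrial growth factor, read 8.79 on the second clipped right array, 4.52 on its mate and 4.28 to 4.64 on the other 6 arrays, a difference of 2.10 ± 1.43 that was -0.04 without that array. How much atrial tissue took part in these values was not tested.

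Sln, sarcolipin, an inhibitor of the calcium pump that is abundant in atria, was the single gene with responses of at least 0.5 in opposite directions and no overlap within either chamber. It read 5.92 and 5.72 in sham right, 6.60 and 7.23 in clipped right, 6.54 and 7.73 in sham left and 6.43 and 6.13 in constricted left. The right value was 1.09 ± 0.33 (adjusted p = 0.062), the left value -0.86 ± 0.33 (adjusted p = 0.66) and the difference 1.95 ± 0.47 (adjusted p = 0.19). Opposite responses of any size without overlap were found in 6.72% of all genes.

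**Figure D5:**
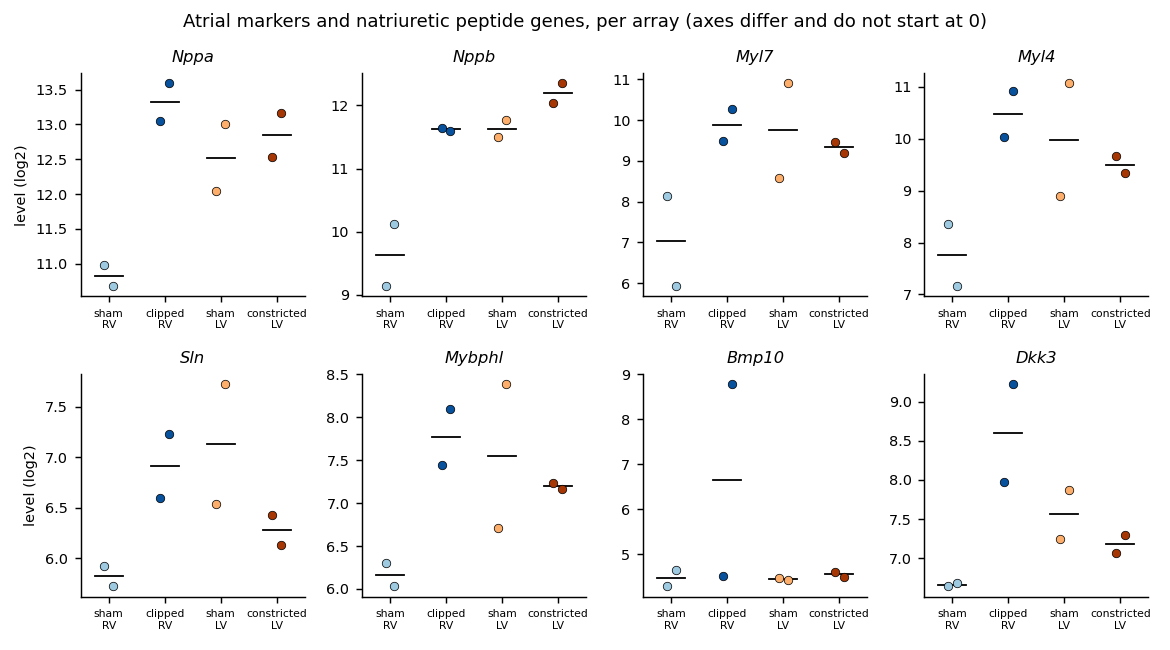
Levels (log2, y axis) of natriuretic peptide and atrial genes on each array of the sham right, clipped right, sham left and constricted left ventricle; points are arrays, lines group means. The second sham left array is the higher of its pair in Myl7, Myl4, Sln and Mybphl, and a single clipped right array carries the Bmp10 level of 8.79.

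On the lower side no gene passed. The 12 genes with the smallest p had differences of -0.88 to -0.56 (adjusted p 0.11 to 0.18). They were chosen by this contrast, so that their pattern over the groups follows in part from the choice and is given as a description. Of them 11 fell on the right. In 10 of the 12 both sham right arrays lay above the other 6, which held for 18.2% of all genes. Tmod4, a tropomodulin that caps actin filaments in skeletal muscle, read 9.01 and 9.02 in sham right, 8.26 and 8.21 in clipped right, 8.95 and 9.03 in sham left and 9.21 and 8.96 in constricted left. The clipped right arrays were the lowest and the other groups overlapped, and the right response was -0.78 ± 0.10 (adjusted p = 0.0042) with a difference of -0.88 ± 0.14 (adjusted p = 0.11). Atp5e, the epsilon subunit of ATP synthase, was among the 10 with sham right on top. Its sham right arrays stood alone at 10.74 and 10.77, with the other 6 arrays between 9.92 and 10.25 (-0.77 ± 0.15, adjusted p = 0.16). Taf10, a subunit of the general transcription factor TFIID, had -0.68 ± 0.13, Eef1akmt1, a lysine methyltransferase of a translation factor, -0.71 ± 0.13, Prkcz, an atypical protein kinase C, -0.73 ± 0.16 and Alox5, the first enzyme of leukotriene synthesis, -0.71 ± 0.14. Grcc10, Smim5, Sbpl, the long non-coding RNA Dancr and C1ql2 had differences of -0.78, -0.58, -0.80, -0.59 and -0.56.

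Some named genes had a higher value on the left without a rise on the right. Over all genes the right response was the larger in size in 14462 of 19938. B3galt2, a galactosyltransferase, was the one of the 12 lower genes without a right response: 7.69 and 7.88 in sham right, 7.86 and 7.75 in clipped right, 8.15 and 8.13 in sham left and 8.85 and 8.76 in constricted left. Its left value was 0.67 ± 0.09 (adjusted p = 0.11) and its difference -0.65 ± 0.13 (adjusted p = 0.16). Cnn1, calponin, had 0.49 on the left and -0.04 on the right, and Edn3, an endothelin ligand, 0.60 and 0.09 (differences -0.53 ± 0.13 and -0.51 ± 0.19). Tcap, titin cap, had 0.28 on the left and -0.28 on the right (-0.55 ± 0.14). None of these differences passed (adjusted p 0.16 to 0.29).

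Of 37 genes of fatty acid uptake and oxidation 14 fell on the right (5.62% of all genes) and none rose, 8 were lower and 1 higher for the difference at an unadjusted p under 0.05 (7.34% and 7.59% of all genes), and the medians were -0.26 on the right, -0.11 on the left and -0.16 for the difference. Etfb, which passes electrons from fatty acid oxidation on, read 12.44 and 12.35 in sham right, 11.87 and 11.85 in clipped right, 12.10 and 11.97 in sham left and 11.97 and 11.96 in constricted left, a difference of -0.47 ± 0.12 (adjusted p = 0.20). Cpt2, Decr1, Acads and Esrra, the last a receptor that drives mitochondrial genes, had -0.47, -0.37, -0.39 and -0.39, and each of them fell on the right. Of 56 genes of the respiratory chain and citrate cycle 7 fell on the right (5.62% of all genes), and 6 were lower and none higher for the difference at an unadjusted p under 0.05 (median -0.10), where 7.34% of all genes were lower, a share near that of the list. Cox4i1, a subunit of cytochrome oxidase, read 12.39 and 12.38 in sham right and 11.79 to 12.06 on the other 6 arrays (-0.53 ± 0.13, adjusted p = 0.20). Cox8b, Uqcrq, Ndufb8 and Atp5o had -0.54, -0.60, -0.47 and -0.45. Of 30 genes of glucose uptake and glycolysis 3 rose and 3 fell on the right (6.63% and 5.62% of all genes). For the difference 3 were higher and 1 lower at an unadjusted p under 0.05 (7.59% and 7.34% of all genes). Among them the phosphofructokinase Pfkl had 0.55 ± 0.13 and the glucose transporter Slc2a1 0.80 ± 0.20 (adjusted p 0.18 and 0.20), and both rose on the right. Phkg1, of phosphorylase kinase, had -0.93 on the right and -0.48 on the left (-0.44 ± 0.13).

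Skeletal muscle markers had the lowest median of the lists, -0.24, with 3 of 17 genes falling on the right (5.62% of all genes). These markers were dim, with mean levels of 6.20 to 6.51 on the 8 arrays against a median gene level of 6.74. The lower quartile over all genes was 5.41 on both sham right arrays and 5.23 to 5.35 on the other 6. Its part in the list median was not tested. Sarcomere proteins had a median of -0.03 and potassium channels -0.03, in the latter from -0.23 on the right and -0.17 on the left, where 10 of 25 were lower at an unadjusted p under 0.05 (3.98% of all genes). Kcnip2, a subunit of the transient outward channel, had -0.28 on the left and -0.06 on the right (difference 0.22 ± 0.12, adjusted p = 0.39). Mybpc3, myosin binding protein C, rose by 0.36 on the right from 12.77 and 12.82 to 13.17 and 13.14, the level of the left ventricle (13.20 to 13.26 on all 4 arrays). In signalling genes, Gucy1a1 and Gucy1b1, the subunits of the nitric oxide receptor, had 0.47 ± 0.12 and 0.41 ± 0.16 and rose on the right, and Agtr1a, the angiotensin II receptor, -0.35 ± 0.14 with a fall on the right (adjusted p 0.20 to 0.30 for the differences).

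Immune genes varied between mates. Among 38 markers of macrophages and myeloid cells the right ventricle had 4 rises and 1 fall (6.63% and 5.62% of all genes). For the difference 8 were higher and none lower at an unadjusted p under 0.05 (7.59% and 7.34% of all genes), and 34 were above 0 (46.9%). The median difference was 0.27, and 0.15 to 0.41 with one array left out. Adgre1, a macrophage surface marker, and Ccr2, a chemokine receptor of recruited monocytes, had 0.42 ± 0.13 and 0.62 ± 0.16 (adjusted p 0.25 and 0.20). Ccr2 read 6.59 and 6.51 in sham right and 7.02 to 7.31 on the other 6 arrays, so that the sham right arrays stood apart and not the clipped ones. Mpeg1 had 0.81 ± 0.22. Chemokines and complement had a median of 0.32, with Cxcl12 at 0.76 ± 0.18 and Ccl12 at 0.83 ± 0.25. Interferon-stimulated genes had a median of 0.47 that was 0.01 without the second clipped right array and 0.85 without the first. Ifit3 read 6.94 and 8.41 on the clipped right arrays and 6.50 to 7.33 on the other 6 (1.00 ± 0.50, adjusted p = 0.38). Rsad2 (viperin), the member with close mates, had 0.67 ± 0.15 and rose by 0.85 on the right. Retnla, a product of alternatively activated macrophages named after its values were seen, was a gene with values below -1 on both sides, -1.20 ± 0.29 on the right and -1.30 ± 0.29 on the left (adjusted p 0.032 on the right, 0.39 on the left).

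Transcription factors that pattern the chambers showed small values. Of 34 factors none rose and 3 fell on the right (6.63% and 5.62% of all genes). There 13 were lower and 4 higher at an unadjusted p under 0.05 (18.3% and 15.1% of all genes). The medians were -0.17 on the right, -0.05 on the left and -0.04 for the difference. Hand2 had -0.37 ± 0.13 (adjusted p = 0.27), Hand1 -0.18 ± 0.16 (0.60), Irx3 -0.10 ± 0.13 (0.74) and Tbx5 0.15 ± 0.15 (0.66). Tbx5 read 8.55 and 8.62 in sham right, 8.20 and 8.43 in clipped right, 8.35 and 8.57 in sham left and 8.02 and 8.07 in constricted left, lower after either operation. Of 6 genes that the study linked to the right heart, chosen on these samples and so no independent evidence, Dkk3 and Sfrp2 rose on the right and are described above. The others gave differences of 0.30 ± 0.20 for Nbl1, 0.23 ± 0.20 for Clu, 0.10 ± 0.13 for Anxa7 and -0.11 ± 0.11 for Fnbp1 (adjusted p 0.50 to 0.74), none of them with a rise or fall that passed on the right.

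The remaining lists had median differences between -0.13 (neuronal and Schwann cell markers) and 0.19 (endocardial and valve markers). Immediate early and heat shock genes had 0.16, glucose and glycolysis genes 0.14, and MHC class II, clock, conduction, red cell and unfolded protein response genes -0.04 to 0.03. Those of lymphocytes (-0.06), fat cells (-0.02), protein turnover (0.06) and the unfolded protein response (0.03) changed sign with loess scaling.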

How the data were processed

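Total RNA of mouse ventricle pieces was labelled with the WT Terminal Labeling Kit and hybridised to Affymetrix whole-transcript arrays, per the labels' protocols. The authors deposited log2 values, made by RMA in Affymetrix Power Tools, per the submitters' processing notes. No version, annotation file or build is named there. RMA subtracts background, equalises the distributions of the arrays and combines probes, so that fold changes of dim genes are compressed, and arrays have no read depth. Of 35556 probe sets 21789 carried 1 gene in the platform annotation, 1621 several and 12146 none, and the first kind was used. Where several probe sets named a gene, which was so for 999 genes, the brightest by its mean on the 12 arrays stood for it.

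The main test was limma 3.58.1 in R 4.3.3 (lmFit and eBayes, two-sided) on the 8 arrays of 3 weeks with 1 mean per group, the interaction as a contrast, and Benjamini-Hochberg adjustment over 19938 genes. Adjusted p under 0.05 passed. Errors are SEs of the fit unless stated, n = 2 arrays per group. In 5 simulated runs of the right minus left response over 19938 genes with 200 changed genes, 63.8% of genes changed by 1 on the log2 scale and 97.2% of those changed by 2 were recovered, and 3.25% of calls were false. The simulated noise was normal and independent, with no group standing apart, and the shares depend on the 200 planted genes. They do not give the share found in the data, where 2 genes passed while 69 were at least 2-fold higher and 6 at least 2-fold lower. Arrays of one number did not deviate together (correlations -0.16 to 0.11), so they were not paired. The alternatives were another scaling (cyclic loess), probe set means, a filter on dim genes, a trended and robust prior, a replicate block, all 12 arrays, leaving out each array, and, chosen after seeing the data, leaving out the second sham left and second clipped right arrays together.

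The members and the 36 gene lists (1028 genes, 950 measured) were chosen with earlier results of these data known. Genes named are those that passed or, with under 5 such genes, the 12 of each sign with the smallest p among genes whose highest group mean reached the median level of 6.74 (some, such as Col12a1, Pdgfrl, C1ql2 and Sbpl, reached it only in the group where they were high), those with opposite responses of at least 0.5, up to 5 per list by smallest p, and a fixed set of load, matrix and chamber genes. Predicted genes, receptors of smell and taste, histones, immune receptor segments and small RNAs were left out of the naming. Upstream sequences are RefSeq's (GRCm38.p6).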

Additional observations from a re-analysis of the deposited data

Results flagged for a closer look

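Responses that differed between the ventricles by the test of the difference itself were those of Emp1, with a right minus left response of 1.68, and Itgbl1, with 1.72. In other named genes the clipped right arrays lay to one side of their sham arrays and the constricted left arrays to the other side of theirs. These differences did not pass the test across all genes. Genes were named largely by a small p of this same difference, so the pattern follows in part from the choice. Some left values were small, such as 0.08 ± 0.09 for Acads and -0.10 ± 0.09 for Fzd1. Such values were 1.95 for Sln, 1.21 for Ms4a4a (a myeloid membrane protein), 0.81 for Mpeg1, 0.80 for Slc2a1, 0.70 for Igf1, 0.59 for Pdgfd, 0.55 for Pfkl, 0.49 for Fzd1, 0.47 for Gucy1a1 and 0.37 for Cdk2 (a cell cycle kinase), all higher on the right. They were -0.71 for Eef1akmt1, -0.68 for Taf10, -0.59 for Dancr, -0.58 for Smim5, -0.55 for Tcap and -0.39 for Acads, all lower on the right. Opposite responses without overlap were seen in 6.72% of all genes, a share over genes not chosen in this way.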

How the results depend on the processing

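The count of genes passing for the right minus left response was 2. It was 0 with all 12 arrays, 124 with the trended and robust prior (105 higher, 19 lower), 25 without genes below the median level, 5 without the second sham left and second clipped right arrays together, and 0 to 99 with one array left out. The right response passed in 2441 genes, in 1148 with all 12 arrays, in 218 without those 2 arrays together, and in 253 to 2687 with one array left out. The left response passed in 0 genes, in 24 with the trended and robust prior, in 11 without dim genes, and in 0 to 1 with one array left out. The cause was not tested. With the replicate block the counts were 2, 1870 and 0, and with cyclic loess 3, 1701 and 0. Among 1784 values of 120 named genes under 15 alternatives 19 reversed. With one array left out, the values of the genes concerned ran from -0.02 to 0.02 for Myh6, -0.20 to 0.00 for Irx3, 0.00 to 0.46 for Clu, -0.06 to 0.25 for Top2a, -0.04 to 4.23 for Bmp10, -0.14 to 0.00 for Col18a1, -0.13 to 0.15 for Ccn1 and -0.44 to 0.66 for Retnla. With loess Myh6 had 0.03 and Ccn1 -0.07, and without the second sham left and clipped right arrays together Tbx5 had -0.07, Clu -0.11 and Bmp10 -0.02. Of 539 list medians 533 moved by no more than the spread between mates and 39 changed sign. That spread came from the same mates, so leaving out an array could hardly move a median beyond it. For those settings the count is no measure of steadiness. With 2 arrays per group the number of arrays limits the precision: the median SE of the difference was 0.145.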
